A study of Mus musculus with 4 samples.

Results

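The replication-dependent histone genes of the mouse were examined for open chromatin at their promoters. They were taken as every protein-coding gene on an autosome in GENCODE mouse release 21 whose symbol begins with Hist1h, Hist2h, Hist3h or Hist4h. The rule gave 67 genes of 20807 autosomal coding genes. Another 3 genes carry such a symbol but are not annotated as coding and were left out. By position, 54 of the 67 genes form the Hist1 cluster on chromosome 13, 10 the Hist2 cluster on chromosome 3, and 2 the Hist3 cluster on chromosome 11, and Hist4h4 lies alone on chromosome 6. By product, 6 genes encode linker histone H1, 18 encode H2A, 18 encode H2B, 12 encode H3 and 13 encode H4.

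The cells were E14 mouse embryonic stem cells (ESCs), and open DNA was mapped by ATAC-seq, in which a transposase cuts accessible chromatin and tags it for sequencing. Of the 4 libraries, 1 carried a short hairpin RNA that targets GFP (shGFP) and 3 a hairpin that targets luciferase (shLuc replicates 1, 2 and 3). Neither target is a mouse gene, so both are control hairpins, and all cells were infected with pLKO lentivirus, selected with puromycin and kept in medium with serum and LIF. Each library came as a list of peaks, intervals in which a peak caller found an excess of reads, with positions only and no height or score. The lists held 41943 peaks for shGFP and 17860, 41401 and 31585 peaks for shLuc replicates 1, 2 and 3, and they hold no read counts. The total reads that the study states for each library follow the same order as the lengths of the lists, and the depth behind a single peak is not given by the lists. As a check of the cell type, 6 genes that mark ESCs were examined, of which 2, 1, 2 and 3 had a promoter peak in shGFP and shLuc replicates 1, 2 and 3. Zfp42 had one in all 4 libraries, Esrrb in shLuc replicates 2 and 3 and Klf4 in shGFP and shLuc replicate 3, whereas Pou5f1, Nanog and Sox2 had none in any. Over all autosomal coding genes 61.9, 48.4, 61.5 and 56.3% had a promoter peak in these libraries. These 6 genes therefore did not show the cell type in the lists, and the cell type given here is the one the study states.

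Replication-dependent histone genes supply the core and linker histones that package newly made DNA in S phase, and ESCs, which divide fast, need many copies. They lack introns as a rule, their mRNAs end in a stem-loop in place of a poly(A) tail, and many H2A and H2B genes sit head to head so that a short stretch of DNA serves as the promoter of both. NPAT, a coactivator at histone locus bodies, joins factors that read elements particular to each histone type.

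The DNA between the starts of a few H2A-H2B pairs is shown because the peak lists differ at these pairs. All are printed from the plus strand of GRCm38 (mm10), from the base after the start of the minus-strand gene to the base before that of the plus-strand gene, with promoter elements in capitals where they occur on either strand: the TATA box TATAAA, the NF-Y element CCAAT, the octamer element ATTTGCAT and the H1 box AAACACA. The region of Hist1h2ac and Hist1h2bc (chr13:23683949-23684198) lay under a peak in all 4 libraries, that of Hist2h2ac and Hist2h2be (chr3:96220881-96221118) in 3, and those of Hist1h2ae and Hist1h2bg (chr13:23571221-23571395) and of Hist1h2bf and Hist1h2ad (chr13:23574197-23574380) in none. 
Hist1h2ac/Hist1h2bc: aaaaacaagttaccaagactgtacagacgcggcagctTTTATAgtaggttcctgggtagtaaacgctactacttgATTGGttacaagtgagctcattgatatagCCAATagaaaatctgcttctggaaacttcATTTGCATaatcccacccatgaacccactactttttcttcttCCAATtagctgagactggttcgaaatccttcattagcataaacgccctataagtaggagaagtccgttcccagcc
Hist2h2ac/Hist2h2be: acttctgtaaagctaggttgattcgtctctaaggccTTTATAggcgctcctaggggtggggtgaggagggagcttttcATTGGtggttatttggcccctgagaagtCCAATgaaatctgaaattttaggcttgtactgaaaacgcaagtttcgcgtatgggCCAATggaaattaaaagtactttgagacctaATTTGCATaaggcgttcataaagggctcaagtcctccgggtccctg
Hist1h2ae/Hist1h2bg: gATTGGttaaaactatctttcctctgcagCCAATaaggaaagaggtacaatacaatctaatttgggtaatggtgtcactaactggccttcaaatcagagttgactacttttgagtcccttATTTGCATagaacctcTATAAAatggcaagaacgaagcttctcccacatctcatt
Hist1h2bf/Hist1h2ad: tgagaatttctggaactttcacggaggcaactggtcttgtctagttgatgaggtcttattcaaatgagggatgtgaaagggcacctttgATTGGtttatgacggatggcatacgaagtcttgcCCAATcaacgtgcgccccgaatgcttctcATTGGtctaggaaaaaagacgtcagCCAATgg

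A gene was counted as having a promoter peak when at least 1 of its transcript starts lay no more than 1 kb from a peak. In the shGFP library 34 of the 67 histone genes had one (50.7%, 95% Wilson interval 39.1 to 62.3%), where 61.9% of all autosomal coding genes had one. In shLuc replicates 1, 2 and 3 the counts were 24, 38 and 27 of 67, or 35.8, 56.7 and 40.3%, where 48.4, 61.5 and 56.3% of all coding genes had a promoter peak. The shLuc mean was 44.3% ± 11.0 (SD, n = 3), and the shGFP value lay between the lowest and the highest shLuc library. With 1 shGFP library against 3 no difference between the hairpins could be tested, since an exact permutation test of such groups cannot give a p below 0.25. Wilson intervals here cover counting error over genes only.

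Histone genes had a promoter peak less often than the other 20740 coding genes, with differences of -11.2 percentage points in shGFP and -12.6, -4.80 and -16.1 points in shLuc replicates 1, 2 and 3 (shLuc mean -11.2 ± 5.77, SD, n = 3). This order depended on the genes used for comparison. Other coding genes have a median of 3 annotated start sites, whereas only 4 histone genes have more than 1. Against the 4343 other coding genes with a single start site, of which 33.3% had a peak in shGFP and 28.3% ± 5.25 in shLuc (SD, n = 3), the histone genes stood 17.5 points higher in shGFP and 16.0 ± 6.67 points higher in shLuc. With a peak counted near a start codon in place of a transcript start, the difference was 4.02 points in shGFP and 5.17 ± 6.14 in shLuc, in favour of the histone genes.

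**Figure D1:**
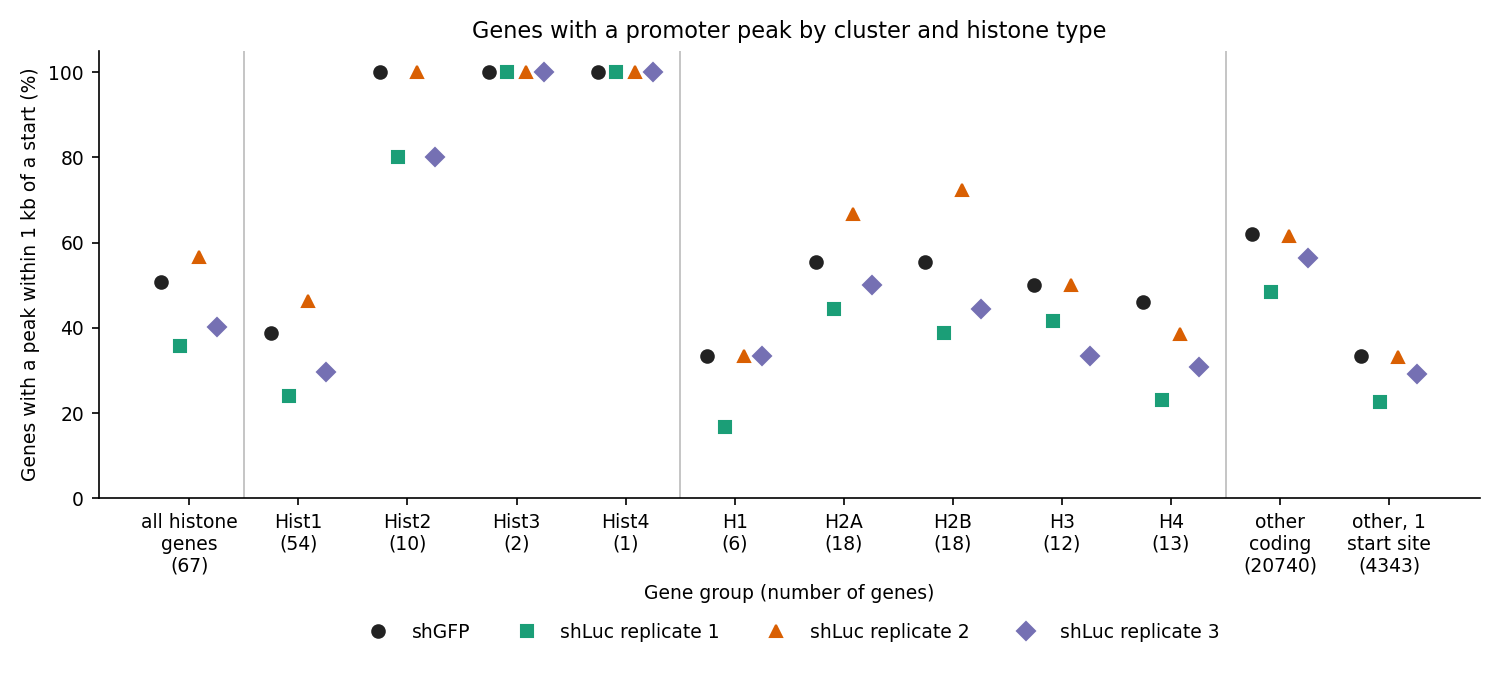
Percentage of genes with an ATAC-seq peak within 1 kb of a transcript start (y axis) for all histone genes, each cluster, each histone type, other coding genes and other coding genes with a single start site (x axis, number of genes in parentheses), with 1 symbol per library. The Hist2, Hist3 and Hist4 genes sit at 80 to 100% in every library, and the Hist1 genes between 24.1 and 46.3%.

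The 4 clusters differed. All 3 genes of the Hist3 and Hist4 clusters had a peak in every library, and of the 10 Hist2 genes 10, 8, 10 and 8 had one in shGFP and shLuc replicates 1, 2 and 3. Of the 54 Hist1 genes only 21, 13, 25 and 16 had one, which is 38.9% in shGFP and 33.3% ± 11.6 in shLuc (SD, n = 3). The lowest Hist2 share, 80%, was above the highest Hist1 share, 46.3%. A start itself lay under a peak at 10, 5, 9 and 7 Hist2 genes and at 19, 10, 21 and 13 Hist1 genes. By this measure the lowest Hist2 share was 50% and the highest Hist1 share 38.9%. The Hist2 counts rested on only 5, 5, 5 and 4 distinct peaks. All 22 histone genes without a peak in any library were Hist1 genes, and they made up 40.7% of that cluster. Over the autosomal coding genes 34.0% had a peak in no library.

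The Hist1 genes lie in 4 blocks separated by more than 100 kb, and the blocks had different patterns. In block 1, with 18 genes over 123.8 kb, 7, 7, 12 and 6 genes had a peak in shGFP and shLuc replicates 1, 2 and 3, and none had one in all 4 libraries. In block 2, with 5 genes, the counts were 4, 2, 2 and 2. In block 3, with 29 genes over 235.4 kb, they were 10, 4, 9 and 8, and 19 genes had no peak in any library. Block 3 thus held most of the genes without a peak, whereas block 1 held genes whose peak came and went between libraries. Block 4 is the pair of germ-cell genes Hist1h2ba and Hist1h2aa, at which only shLuc replicate 2 had a peak.

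Neighbouring Hist1 genes often lacked a peak together. The longest run without a peak in any library held 6 genes over 12.2 kb, Hist1h2ae, Hist1h2bg, Hist1h2bf, Hist1h2ad, Hist1h3d and Hist1h4d (chr13:23570517-23582735), one or more of each core histone. Another 4 genes at the end of block 3, Hist1h4b, Hist1h4a, Hist1h3a and Hist1h1a (chr13:23757013-23764406), had none. The remaining runs were Hist1h4h, Hist1h2af and Hist1h3g; Hist1h3c, Hist1h2bb and Hist1h2ab; Hist1h4f and Hist1h1d; and Hist1h1b and Hist1h3i. Hist1h4i and Hist1h1t had no peak while their nearest histone neighbours on both sides had one in at least 1 library.

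**Figure D2:**
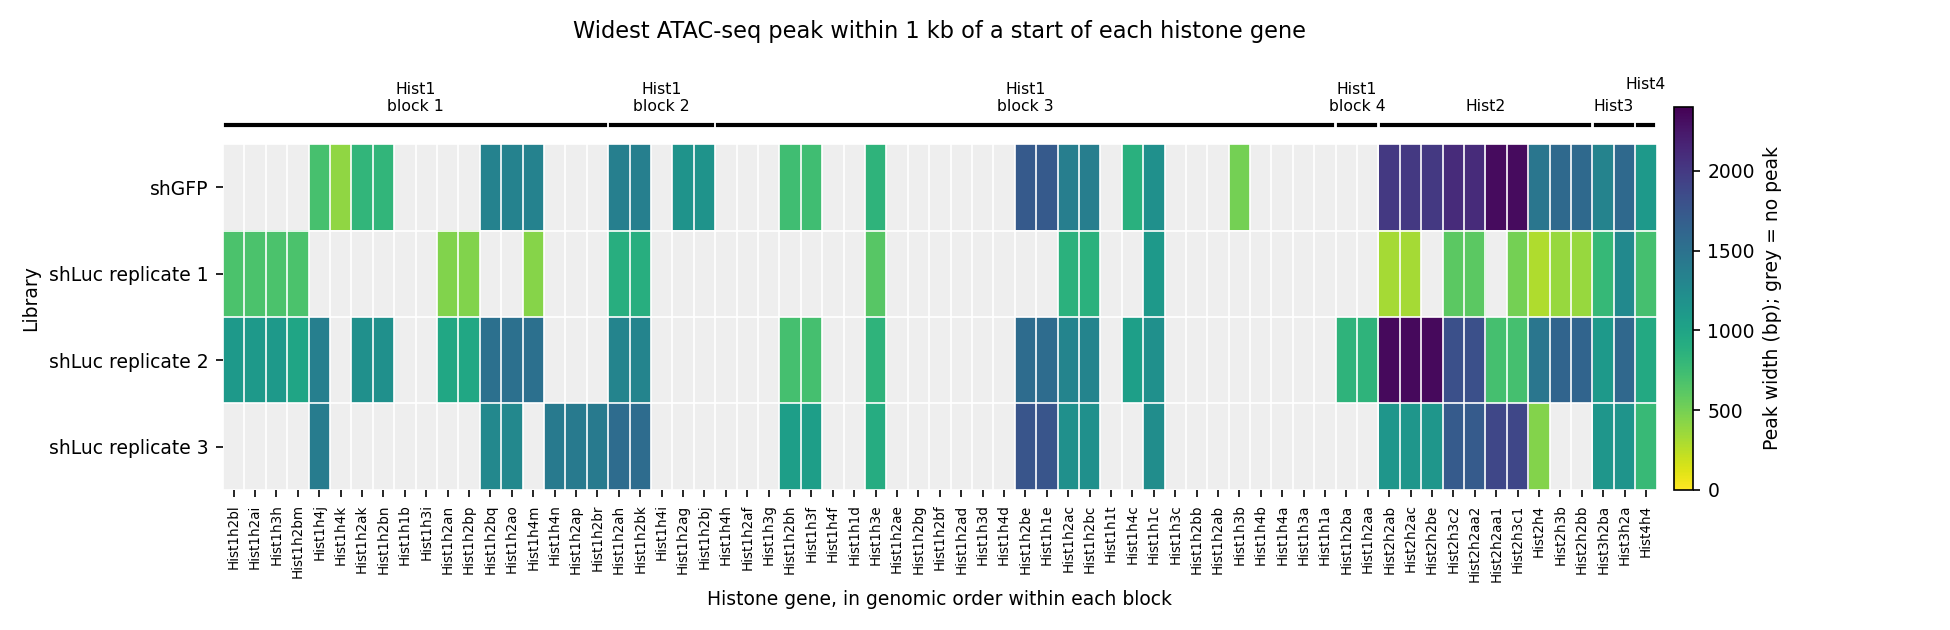
Width in bp of the widest peak within 1 kb of a start (colour, grey for no peak) for each of the 67 histone genes (x axis, in genomic order within each block) in the 4 libraries (y axis). Block 3 of Hist1 is grey for 19 of its 29 genes in every row, while the Hist2 genes are coloured in nearly every row.

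Linker histone H1 binds the DNA where it enters and leaves the nucleosome. Of its 6 genes 2, 1, 2 and 2 had a peak in shGFP and shLuc replicates 1, 2 and 3. Hist1h1c (chr13:23738808-23740367, plus strand) was the only H1 gene with a peak in all 4 libraries, with widths of 1195, 1104, 1199 and 1225 bp. Hist1h1e (chr13:23620629-23622558, minus strand) had peaks of 1718, 1553 and 1770 bp in shGFP and shLuc replicates 2 and 3 and none in shLuc replicate 1. Both H1 peaks lay mainly over the gene and not ahead of it. At Hist1h1c the shGFP peak reached 79 bp upstream of the start and 1115 bp into the gene, and at Hist1h1e 88 bp upstream and 1629 bp into it. Hist1h1a, Hist1h1b, Hist1h1d and the testis gene Hist1h1t had no peak near a transcript start in any library.

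Hist1h1d is annotated as 7425 bp long, with a transcript start 1828 bp from its start codon. Within 1 kb of the start codon a peak of 1095 bp was listed in shLuc replicate 1 and one of 1418 bp in shLuc replicate 2. Hist1h2be, an H2B gene, is annotated over 37455 bp because of a transcript that begins inside Hist1h1e, so that the peak counted for it in 3 libraries was the Hist1h1e peak. Its start codon lies 35168 bp from that 5′ end and had a peak, of 884 bp, only in shLuc replicate 3. At Hist2h2aa1 the choice of the start codon added a peak of 501 bp in shLuc replicate 1. No other histone gene gained or lost a peak in any library by this change of measure.

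The 200 bases ahead of the Hist1h1c start (chr13:23738608-23738807, plus strand) and of the Hist1h1b start (chr13:21780626-21780825, minus strand, given as read from that strand) show the H1 box AAACACA, an element of H1 promoters, at a gene with peaks in all 4 libraries and at one with none. Capitals mark the same elements and, in addition, the H4 element GGTCCG.
Hist1h1c: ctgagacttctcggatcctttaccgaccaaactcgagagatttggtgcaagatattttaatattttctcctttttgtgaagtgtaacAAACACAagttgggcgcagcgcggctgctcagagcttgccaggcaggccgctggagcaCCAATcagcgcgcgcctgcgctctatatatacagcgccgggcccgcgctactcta
Hist1h1b: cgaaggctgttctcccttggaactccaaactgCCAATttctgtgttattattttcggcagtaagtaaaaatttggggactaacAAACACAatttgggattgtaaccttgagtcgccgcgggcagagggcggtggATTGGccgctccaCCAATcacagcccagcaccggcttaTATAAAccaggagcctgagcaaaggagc

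H2A and H2B form the dimers that flank the H3-H4 tetramer in the nucleosome. Of the 18 H2A genes 10, 8, 12 and 9 had a peak in shGFP and shLuc replicates 1, 2 and 3 (shLuc mean 53.7% ± 11.6, SD, n = 3), and of the 18 H2B genes 10, 7, 13 and 8 (51.9% ± 17.9). A peak in all 4 libraries was found at 6 H2A genes, namely Hist1h2ah, Hist1h2ac, Hist2h2ab, Hist2h2ac, Hist2h2aa2 and Hist3h2a. It was also found at 3 H2B genes, Hist1h2bk, Hist1h2bc and Hist3h2ba. The peak did not cover the start of Hist2h2ab in shLuc replicate 3 or that of Hist2h2ac in shLuc replicate 1. The peaks of these libraries at both genes did not overlap. The 9 H2A genes that encode the same protein, all in Hist1, had a peak in 3, 3, 4 and 3 cases. Hist3h2a peaks measured 1577, 1262, 1592 and 1155 bp, and Hist3h2ba peaks 1329, 796, 1103 and 1136 bp. The annotated start of Hist3h2a is also a start of Trim17, a ubiquitin ligase gene, so its peak cannot be given to either gene alone. Likewise Hist2h2ab starts next to Bola1, a coding gene on the other strand with a peak in all 4 libraries.

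Of the 12 genes for H3, 6, 5, 6 and 4 had a peak in shGFP and shLuc replicates 1, 2 and 3. A start itself lay under a peak at only 5, 2, 3 and 3 of them. They encode 3 distinct proteins as annotated. Of the 7 genes for the commonest one, 5, 3, 4 and 3 had a peak in shGFP and shLuc replicates 1, 2 and 3. Of the 4 genes for another, Hist1h3a, Hist1h3g, Hist1h3h and Hist1h3i, 0, 1, 1 and 0 had one, in each case Hist1h3h, by way of a peak whose nearest starts are those of Hist1h2bl and Hist1h2ai. Hist1h3e (chr13:23561534-23562369, minus strand) was the only Hist1 gene for H3 with a peak in all 4 libraries, of 842, 628, 843 and 912 bp.

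All 13 H4 genes encode the same protein of 103 residues, the initial methionine included. A peak was listed at 6, 3, 5 and 4 of them in shGFP and shLuc replicates 1, 2 and 3. Hist4h4 (chr6:136801553-136804415, minus strand) and Hist2h4 (chr3:96261682-96263311, minus strand), both outside Hist1, were the H4 genes with a peak in all 4 libraries, whereas 6 of the 11 Hist1 genes for H4 had none in any. The Hist4h4 peaks measured 1114, 708, 944 and 781 bp, and the Hist2h4 peaks 1460, 286, 1454 and 449 bp. Genes for an identical protein therefore ranged from a peak in every library to no peak at all.

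The 200 bases ahead of Hist4h4 (chr6:136804416-136804615, minus strand, given as read from that strand), with a peak in all 4 libraries, and of Hist1h4b (chr13:23756813-23757012, plus strand), with none, both hold GGTCCG, the core of the H4 site that the factor HINFP binds. Capitals are as for the H1 genes.
Hist4h4: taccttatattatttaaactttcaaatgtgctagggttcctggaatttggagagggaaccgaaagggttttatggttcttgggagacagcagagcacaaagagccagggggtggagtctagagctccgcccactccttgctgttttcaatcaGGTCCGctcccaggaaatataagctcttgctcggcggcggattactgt
Hist1h4b: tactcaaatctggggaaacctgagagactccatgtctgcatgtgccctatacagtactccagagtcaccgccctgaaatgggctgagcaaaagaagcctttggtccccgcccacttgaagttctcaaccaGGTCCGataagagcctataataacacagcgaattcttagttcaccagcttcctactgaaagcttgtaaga

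Among the histone genes 12 H2A-H2B pairs lie head to head with their starts 176 to 306 bp apart (median 259.5 bp). A single peak came within 1 kb of both starts in 6 pairs in shGFP and in 4, 8 and 5 pairs in shLuc replicates 1, 2 and 3 (shLuc mean 5.67 ± 2.08, SD, n = 3). Over all 714 head-to-head coding pairs with starts within 1 kb, 90.8, 83.5, 91 and 86.3% had such a peak in these libraries. The H2A-H2B pairs had it in 50.0, 33.3, 66.7 and 41.7% of cases, below that background in every library. Where a pair had any peak in shGFP or shLuc replicates 2 and 3, 1 peak lay over both starts, in 6, 8 and 5 pairs. In shLuc replicate 1 this held for 3 of 5 pairs with a peak. There the 450 bp peak of Hist1h2an/Hist1h2bp ended 100 bp short of the Hist1h2bp start, and a peak of 328 bp was near Hist2h2ac but not within 1 kb of Hist2h2be.

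Hist1h2ac/Hist1h2bc and Hist1h2ah/Hist1h2bk were the pairs with a joint peak, one within 1 kb of both starts, in all 4 libraries. The Hist1h2ac/Hist1h2bc peaks were 1373, 870, 1318 and 1191 bp wide and the Hist1h2ah/Hist1h2bk peaks 1363, 897, 1313 and 1550 bp. In both pairs the peak was narrowest in shLuc replicate 1 and covered both starts in all 4 libraries. Hist1h2bq/Hist1h2ao and Hist2h2ac/Hist2h2be had a joint peak in shGFP and shLuc replicates 2 and 3. The Hist2h2ac/Hist2h2be peak was among the widest, with 2004, 2338 and 1141 bp, and in these 3 libraries it was also within 1 kb of Hist2h2ab. Hist1h2bl/Hist1h2ai and Hist1h2an/Hist1h2bp had one only in shLuc replicates 1 and 2, Hist1h2ak/Hist1h2bn only in shGFP and shLuc replicate 2, and Hist1h2ag/Hist1h2bj only in shGFP.

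**Figure D3:**
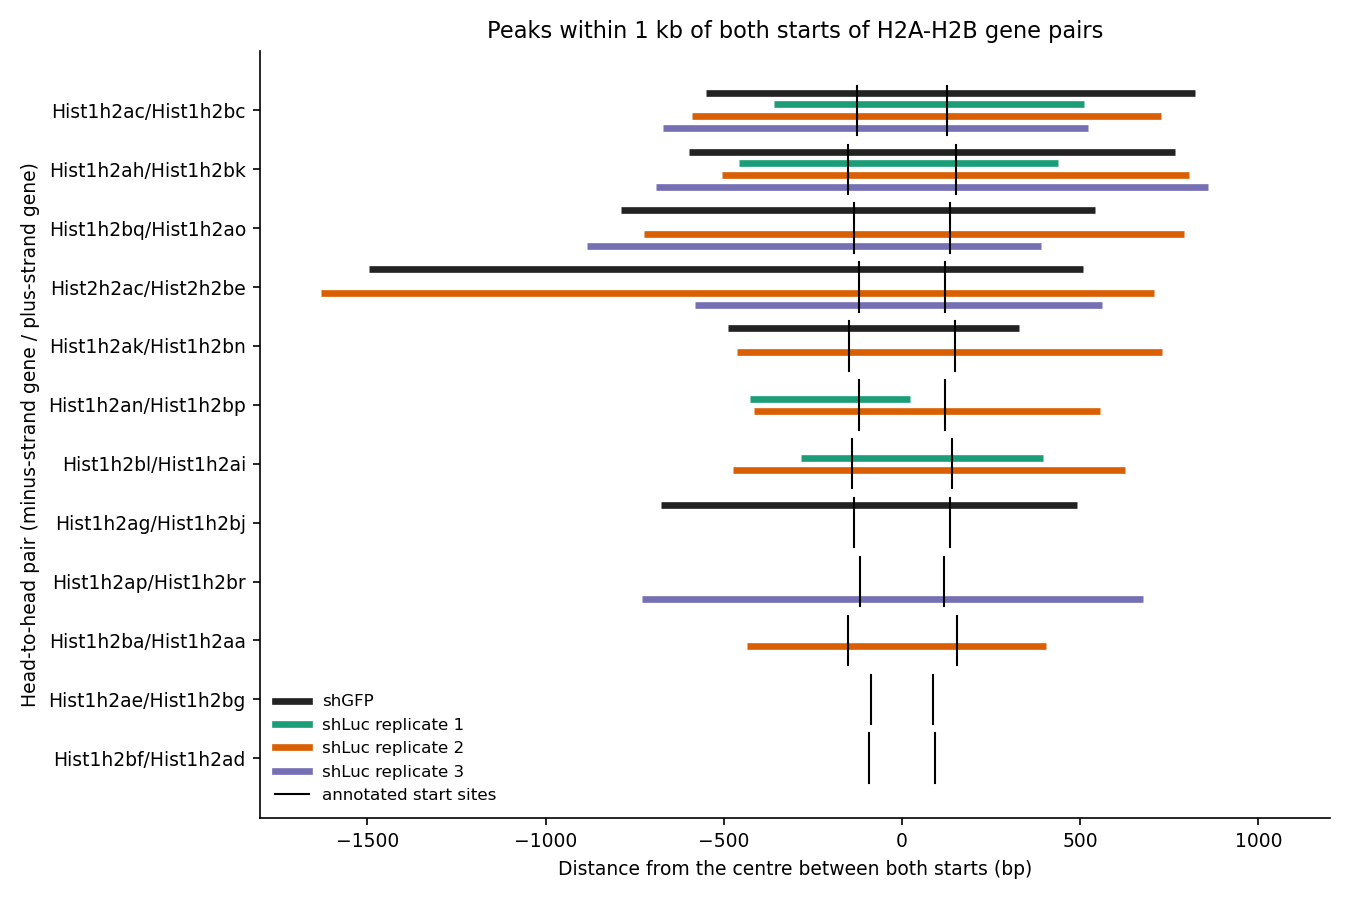
Extent of each peak within 1 kb of both starts (coloured bars, 1 colour per library) relative to the centre between the starts (x axis, bp) for the 12 H2A-H2B pairs (y axis), with black ticks at the annotated starts. The bars of Hist1h2ac/Hist1h2bc and Hist1h2ah/Hist1h2bk span both starts in all 4 libraries, and the lowest rows, Hist1h2ae/Hist1h2bg and Hist1h2bf/Hist1h2ad, are empty.

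Peaks at histone genes were often shared. The 67 genes were served by 22 distinct peaks in shGFP and by 16, 22 and 17 in shLuc replicates 1, 2 and 3. Of these, 12, 7, 13 and 10 came within 1 kb of a start of at least 2 histone genes, or 54.5% in shGFP and 53.9% ± 8.78 in shLuc (SD, n = 3). Among all peaks at coding starts 10.3, 12.1, 10.3 and 10.7% served at least 2 coding genes. Shared peaks accounted for 24 of the 34, 15 of the 24, 29 of the 38 and 20 of the 27 histone genes with a peak. Peaks near 3 or more histone genes numbered 2, 1, 3 and 2, such as the 1332 bp shGFP peak near Hist1h2bq, Hist1h2ao and Hist1h4m.

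The median width of the distinct peaks at histone genes was 1262 bp in shGFP and 654, 1197 and 1191 bp in shLuc replicates 1, 2 and 3 (shLuc mean 1014 ± 312, SD, n = 3). Peaks at all coding starts had medians of 926, 686, 891 and 866 bp. Over all clusters together, histone gene peaks were thus wider in 3 libraries but not in shLuc replicate 1. In those 3, 78.6 to 80.8% of coding start peaks were narrower than the histone gene median, and in shLuc replicate 1 that share was 45.7%. The Hist1 peaks alone had a median of 857 bp in shGFP, below the coding median. In shLuc replicates 1, 2 and 3 the Hist1 medians were 679.5, 1148 and 1250 bp. Without shLuc replicate 1 the shLuc mean was 1194 ± 4.24 bp. The widest peaks lay in Hist2. They were the shGFP peak of 2330 bp near Hist2h2aa1 and Hist2h3c1, the shLuc replicate 2 peak of 2338 bp near Hist2h2ab, Hist2h2ac and Hist2h2be, and in shLuc replicate 3 a peak of 1890 bp near Hist2h2aa1 and Hist2h3c1. In shLuc replicate 1 the median of the 5 Hist2 peaks was 372 bp, against 2004 bp in shGFP, and the widest histone gene peak there was the 1262 bp peak of Hist3h2a.

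**Figure D4:**
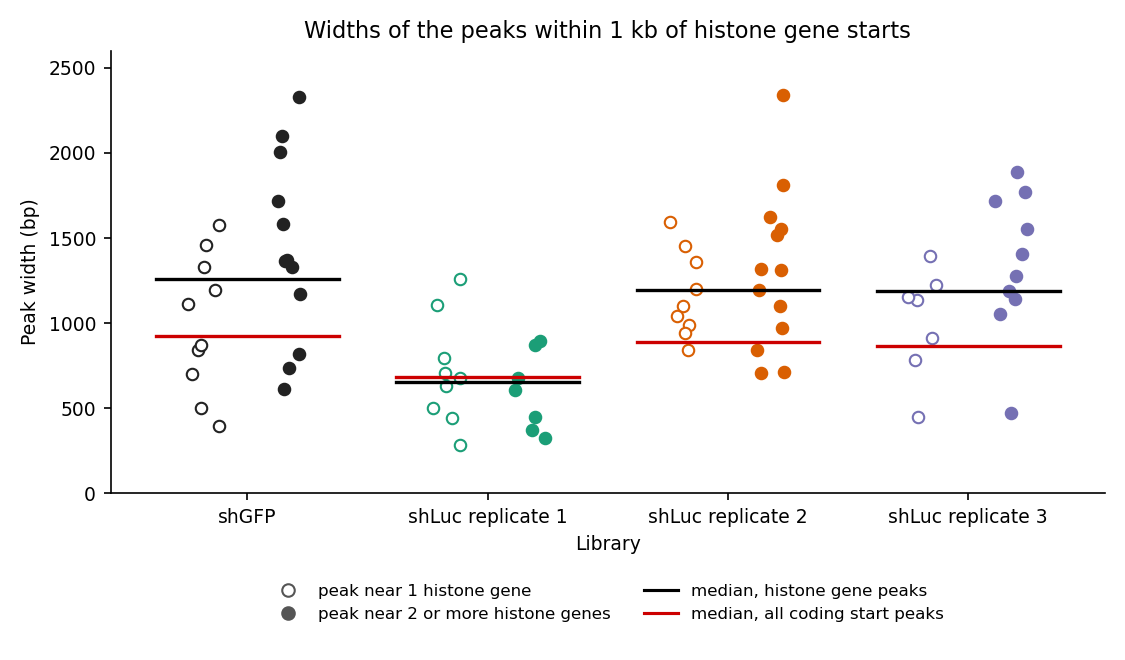
Width in bp (y axis) of each distinct peak within 1 kb of a histone gene start in the 4 libraries (x axis), open circles for peaks near 1 histone gene and filled circles for peaks near 2 or more. Black lines are the medians of these peaks and red lines the medians of all peaks at coding starts, and the black line lies above the red line except in shLuc replicate 1.

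Where a peak lay over the annotated 5′ end, its median reach upstream was longer over all histone genes than over coding genes, but not for every histone type. The median upstream reach was 611 bp in shGFP and 324, 657 and 680 bp in shLuc replicates 1, 2 and 3, against 377, 284, 365 and 353 bp for coding genes. The median reach into the gene was 597, 307, 538 and 580 bp, against 558, 414, 533 and 518 bp. In H2A and H2B genes the upstream side is often the partner gene of a head-to-head pair. In the same order of libraries, the median upstream reach was 627, 423, 751.5 and 663 bp at H2A genes and 712, 497, 689.5 and 747 bp at H2B genes. It was below the coding medians at H1 genes, with 83.5, 86, 82.5 and 120 bp, and at H4 genes, with 208, 112, 271.5 and 174 bp. At H3 genes it was 294, 204.5, 304 and 1288 bp. The H1, H3 and H4 medians rest on 1 to 5 genes each. Because histone genes are short, with a median length of 539 bp, peaks covered 10, 0, 10 and 6 of them from end to end.

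**Figure D5:**
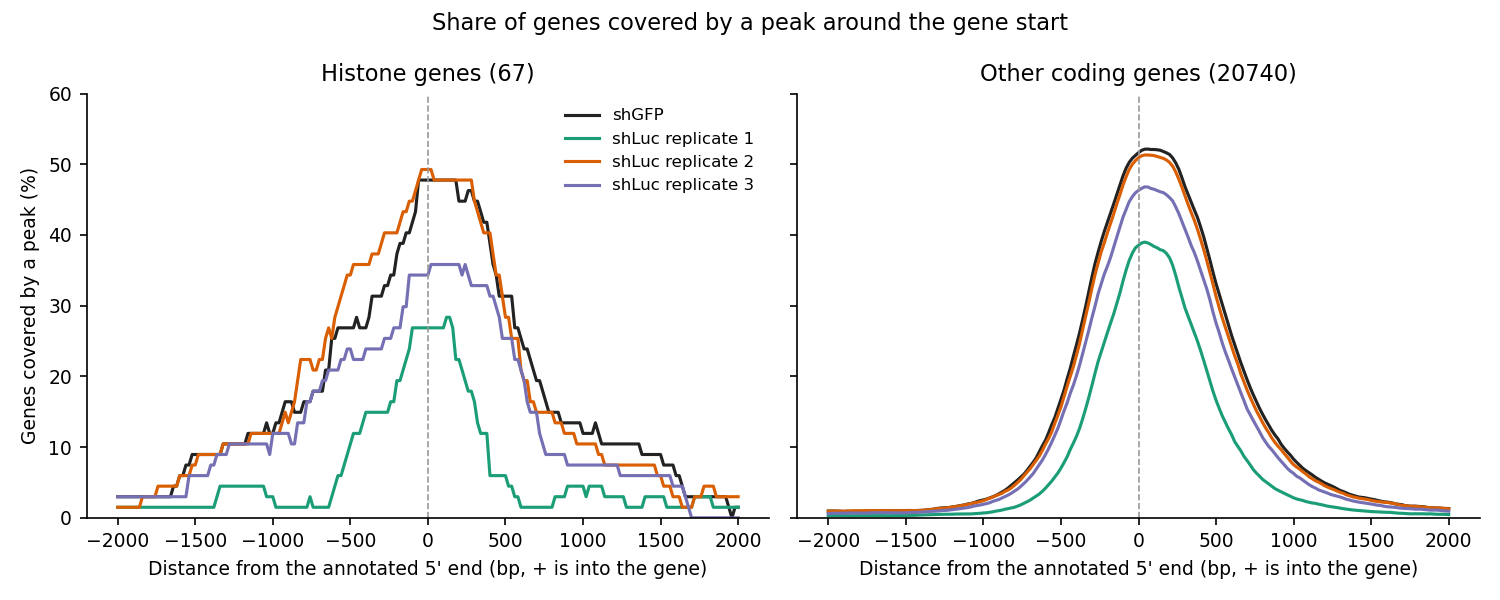
Percentage of genes covered by a peak (y axis) at each distance from the annotated 5′ end (x axis, bp, positive into the gene) for the 67 histone genes and the other 20740 coding genes, with 1 line per library. At 500 bp upstream 26.9% of histone genes and 16.8% of other genes were covered in shGFP, and that of shLuc replicate 1 was the lowest of the 4 histone lines at this distance, with 10.4%, against 7.04% of other genes.

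The libraries disagreed on histone genes more than on other genes. A peak in 1, 2 or 3 libraries but not in all 4 was found at 30 of the 67 genes (44.8%), against 21.9% of other coding genes. Of the 45 histone genes with a peak in any library 15, or 33.3%, had it in all 4, whereas this held for 66.8% of the other coding genes with a peak. In Hist1 it held for 6 of 32 genes (18.8%). Histone genes that share a peak are each counted in these shares, so they are not independent.

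Presence did not follow the length of the lists alone. A total of 9 of the 67 histone genes, among them Hist1h1e, Hist1h4j and Hist2h2be, had a peak in every library but shLuc replicate 1, which has the fewest peaks, and so did 9.67% of other coding genes. Yet 6 genes in block 1 of Hist1, Hist1h2bl, Hist1h2ai, Hist1h3h, Hist1h2bm, Hist1h2an and Hist1h2bp, had one in shLuc replicates 1 and 2 and not in shGFP or shLuc replicate 3. That pattern was found at 0.410% of other coding genes. The 6 genes are not independent, because 1 peak served Hist1h2bl, Hist1h2ai and Hist1h3h, and another served Hist1h2an and Hist1h2bp. All 24 histone genes with a peak in shLuc replicate 1 had one in shLuc replicate 2. At Hist1h4m and Hist2h3c1 the peaks of these libraries did not overlap and matched only through the 1 kb window. By contrast 18 of the 24 (75.0%) had one in shGFP and 15 (62.5%) in shLuc replicate 3. Of the other coding genes with a peak in shLuc replicate 1, 97% had one in shLuc replicate 2, 97.5% in shGFP and 92.6% in shLuc replicate 3. Peaks in shGFP alone were listed at 4 of the 67 histone genes, Hist1h4k, Hist1h2ag, Hist1h2bj and Hist1h3b, and at 1.75% of other coding genes.

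Histone genes resemble one another in sequence, and the study placed a read with several equally good positions at one of them at random. The share of words of 50 bases within 500 bp of the 5′ end with more than 1 copy in the genome had a median of 29.3% over histone genes and 0% over other coding genes. It was at least 50% at 13 histone genes. Among the 54 below 50%, where the share reached 49.2% at Hist1h2ai, 22 (40.7%) had a peak in some libraries only. Among the 13 others 8 (61.5%) did. In other coding genes the shares with a peak in some libraries only were 22.6% below 50% and 8.07% at or above it. These shares count genes without any peak. Of other coding genes with a peak in any library, 33.1% below 50% and 40.9% at or above it had it in some libraries only. For histone genes with any peak these shares were 64.7 and 72.7%. Only 8 histone genes had no repeated word, and 3 of them (37.5%) had a peak in some libraries only, against 23.6% of such other coding genes. The median share of repeated words was 25.5% at the 22 genes without a peak in any library. It was highest, 38.4%, at the 30 genes with a peak in 1 to 3 libraries, and 33.5% at the 15 with a peak in all 4. The part of read placement in these counts was not tested.

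The clearest case of a repeated promoter is that of Hist1h2bq/Hist1h2ao (chr13:21810198-21810464) and Hist1h2ap/Hist1h2br (chr13:21833508-21833742), whose words were 100% repeated. The 235 bases between the starts of Hist1h2ap and Hist1h2br occur with 0 differences, on the other strand, between those of the other pair. At Hist1h2bq/Hist1h2ao peaks of 1332, 1515 and 1275 bp were listed in shGFP and shLuc replicates 2 and 3, and at Hist1h2ap/Hist1h2br a peak of 1407 bp in shLuc replicate 3 alone. Which copy was open cannot be told from these lists. Both are printed from the plus strand with capitals as for the pairs above.
Hist1h2bq/Hist1h2ao: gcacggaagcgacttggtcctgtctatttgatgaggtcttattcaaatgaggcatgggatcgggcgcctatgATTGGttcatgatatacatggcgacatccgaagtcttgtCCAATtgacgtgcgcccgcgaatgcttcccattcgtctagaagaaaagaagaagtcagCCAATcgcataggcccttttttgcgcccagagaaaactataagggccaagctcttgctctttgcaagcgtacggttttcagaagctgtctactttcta
Hist1h2ap/Hist1h2br: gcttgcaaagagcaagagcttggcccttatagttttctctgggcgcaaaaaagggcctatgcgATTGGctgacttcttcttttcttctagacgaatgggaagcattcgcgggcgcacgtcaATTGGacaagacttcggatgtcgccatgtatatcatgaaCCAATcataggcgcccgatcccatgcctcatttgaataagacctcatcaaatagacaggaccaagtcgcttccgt

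The promoters were compared in a window of 300 bases, 250 before and 50 from the 5′ end on, with each motif counted on either strand. The histone genes had a median GC content of 45.3%, against 55.3% in other coding genes, and a median ratio of observed to expected CpG of 0.750 against 0.539. TATAAA was found in 55.2% of histone windows and 12.6% of others. CCAAT, the letters bound by NF-Y, was found in all 18 H2A and all 18 H2B windows, in 11 of 12 H3 and 5 of 6 H1 windows and in 4 of 13 H4 windows, against 38.4% of other coding genes. The octamer ATTTGCAT, read by POU factors, was found in 7 H2A and 8 H2B windows and in no H1, H3 or H4 window, against 1.52% of others. AAACACA was found in 4 of 6 H1 windows, against 6.34% of others. GGTCCG was found in 12 of 13 H4 windows, against 9.67% of others, and Hist1h4a was the exception. GGGCGG, a GC box, was found in 41.8% of histone and 43.7% of other windows. Windows of paired genes overlap, so H2A and H2B counts are not independent.

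Median GC content was 45.7% at the 22 histone genes with no peak, 45.3% at the 30 with a peak in 1 to 3 libraries and 46.3% at the 15 with a peak in all 4. The median CpG ratio was 0.693, 0.812 and 0.664 in the same order, so it was highest at the genes with a peak in some libraries only. Within Hist1 it was 0.806 at the 32 genes with any peak. TATAAA was found in 68.2, 46.7 and 53.3% of the windows with a peak in no, some and all libraries, and CCAAT in 77.3, 83.3 and 93.3%. In other coding genes the same split was wide, with a CpG ratio of 0.173 and a GC content of 46.7% at genes without a peak and 0.765 and 60.7% at genes with a peak in all 4. No test was made, because the groups are defined by the peaks and neighbouring genes share them.

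The histone 3′ stem-loop, which the protein SLBP binds, was searched for on the coding strand in the 150 bases after the stop codon, with the loop and stem pattern known for these mRNAs. It was found at 63 of 67 histone genes and at 2 of 20740 other coding genes, H2afx and Lrrc75b. H2afx encodes the variant histone that marks DNA breaks. The genes in which it was not found were Hist2h2be, Hist1h2an, Hist1h3g and Hist1h4a. The form of 41 genes, Hist1h1c among them, is given with the form of 8 genes, all for H4, such as Hist4h4.
Hist1h1c stem-loop: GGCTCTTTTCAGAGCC
Hist4h4 stem-loop: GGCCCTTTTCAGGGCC
All 15 histone genes with a peak in every library held a stem-loop, as did 20 of the 22 with a peak in none.

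Genes that act with the histone genes mostly had promoter peaks. Over all autosomal coding genes 61.9, 48.4, 61.5 and 56.3% had one in shGFP and shLuc replicates 1, 2 and 3. Of 12 genes for histone transcription and 3′ end processing, such as Npat, Hinfp, Slbp and the U7 snRNP genes Lsm10 and Lsm11, 12, 11, 12 and 12 had a peak in shGFP and shLuc replicates 1, 2 and 3, with Pou2f1, which encodes an octamer-binding factor, missing in shLuc replicate 1. The Npat peaks were 1173, 715, 959 and 1187 bp wide and the Slbp peaks 1101, 975, 1056 and 1212 bp. Of 7 histone chaperone genes 7, 6, 7 and 7 had a peak, with Nasp missing in shLuc replicate 1. Of 13 histone genes listed as replication-independent, expressed as a rule through the cell cycle or in germ cells, 10, 9, 9 and 9 had one. The list includes H2afx, at which the 3′ stem-loop of replication-dependent histone genes was found. H3f3a, H3f3b, H2afv and Cenpa were among the 8 with a peak in all 4 libraries, and the germ-cell linker histone genes H1foo and H1fnt had none. The library with the fewest peaks thus lacked 1 gene of each of the lists for processing and chaperones, while it had a peak at 24 of the 67 replication-dependent histone genes. In that library 48.4% of all autosomal coding genes had a promoter peak.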

How the data were processed

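ATAC-seq peaks of 4 control libraries of E14 mouse ESCs (1 shGFP, 3 shLuc) were analysed, and other libraries of the study were not analysed here. The authors deposited 1 list per library, with 3 columns (chromosome, start, end) and no counts, scores or p-values, so the values used were positions in bp on mm10 and peaks could be ranked by width only. The submitters' processing notes name bcl2fastq, Bowtie2 and MACS2. The peak threshold and read shift are not given in the sources used here. Per the study's methods, Bowtie2 ran end to end with its very sensitive preset, the best alignment was kept and ties were placed at random, which bears on near-identical histone genes.

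Genes and starts came from GENCODE mouse release 21 on GRCm38, which has the coordinates of mm10, and all 21 assembled chromosomes were used for counting words. Head-to-head pairs had starts on opposite strands, at most 1 kb apart, each gene used once. Sequences were read from the GRCm38 genome. Analyses used Python 3.11.15, numpy 2.4.6, scipy 1.17.1, numba 0.67.0, edlib 1.3.9.post1 and matplotlib 3.10.9, and the counting of peaks and words was tested on simulated data. Labels do not say whether the shLuc replicates were separate cultures, so their SD may be technical. Alternatives tried were other windows, the wider peaks of each list, 5′ ends only, less repeated genes, other pair distances and leaving out each shLuc replicate. The single-start comparison and the start codons were added after seeing the data. The histone genes, gene lists and motifs were chosen with earlier results of these data known. Any histone gene could be named, with those described one by one being genes without a peak, with a peak in some libraries only or in all 4, the widest, pair members and germ-cell genes.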

Additional observations from a re-analysis of the deposited data

How the results depend on the processing

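The share of histone genes with a promoter peak, the median peak width, the number of H2A-H2B pairs with 1 peak at both starts and the number of peaks near 2 or more histone genes stayed within set limits under every alternative run. The limit was the Wilson interval for the shGFP share and the SD of the 3 shLuc libraries for the shLuc share and for all widths. That SD, 312 bp for widths, is a wide limit, since it was 4.24 bp without shLuc replicate 1. For counts the limit was 1.5 times. The number of shared peaks came to that limit in the shLuc mean, with 6.67 in place of 10 when only the 54 less repeated genes were counted. Only the difference between histone genes and other coding genes moved further. With the widest 50% of each list it was -4.53 percentage points in shGFP and -2.86 ± 7.65 in shLuc (SD, n = 3), and with the widest 17860 peaks of each list -2.18 and -3.88 ± 11.7, and shLuc replicate 2 alone turned positive, to 5.69 and 9.35 points. With 5′ ends only it was -6.38 in shGFP and -6.69 ± 6.03 in shLuc, with shLuc replicate 2 at 0.0964. It reversed against other coding genes with a single start site, to 17.5 and 16.0 points, and with start codons in place of transcript starts, to 4.02 and 5.17 points, in which shLuc replicate 3 alone stood at -0.434. Leaving out each shLuc replicate in turn gave shares of 38.1 to 48.5%, median widths of 922 to 1194 bp, 4.5 to 6.5 pairs, 8.5 to 11.5 shared peaks and differences of -14.3 to -8.70 points. No paired analysis was possible because there is a single shGFP library and no test was made. The lists hold no read counts, so a gene without a listed peak was not shown to be closed.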
